A study of Mus musculus with 8 samples.

Results

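The serpins are a superfamily of proteins that mostly inhibit serine proteases, and 56 genes of the family could be followed in mouse intestinal organoids treated to delete Apc. Members were all genes whose symbol in the platform annotation begins with Serpin. They were covered by 81 of the 34885 probes with 1 gene symbol, and a gene with several probes was read from the one whose mean across the 8 arrays was greatest. The same rule gave 19057 genes in all. The organoids carried Lgr5-EGFP-IRES-CreER and Apcflox/flox and came from C57Bl mice of 2 to 3 months. Cre acts here only in cells that express the stem cell gene Lgr5, tamoxifen was given for 2 days to every culture, and the Wnt agonist R-Spondin1 was then left out to select Apc-mutant organoids. RNA was taken at day 20 (4 samples, 18 days without R-Spondin1) or at day 7 (4 samples, 5 days without it) after tamoxifen was added, with 1 Illumina beadchip array per sample. The question was what set organoids at day 20 apart from those at day 7. Every sample had been treated to delete Apc, so time since deletion, time without R-Spondin1 and time in culture cannot be told apart. Nor can the extent of selection for Apc-mutant organoids, which was not measured. The sources of the samples also differed in part between the days, as the sex-linked genes below show. Nothing in the labels ties the replicates to different animals or cultures, so p-values measure only how far these samples spread.

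An inhibitory serpin offers a protease a flexible reactive centre loop as bait. When the protease cuts the loop, the serpin snaps into a new fold and traps the enzyme in a covalent complex, so each molecule acts once. Clade letters follow descent: clade A holds the secreted relatives of alpha-1-antitrypsin, clade B stays mostly inside the cell, clades C, D, E, F and G hold plasma regulators of clotting, fibrinolysis and complement, clade H is the collagen chaperone Hsp47, and clade I holds neuroserpin and its relative. Epithelia such as the gut lining use clade B serpins to shield their cytoplasm from stray proteases.

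Every array had the same median and maximum. A background limit of 6.796 was exceeded by 52.99% to 53.17% of the probes of an array. That limit was set from the spread of the lowest values, and values near it carry no order. Over the tested genes, Pearson r across genes was 0.9725 to 0.9797 between day 7 replicate 2 and the other day 7 arrays, and 0.9827 to 0.9917 among day 20 arrays. Day 20 replicates 1 and 4 stood apart from the other 6 arrays in sex-linked genes: Xist, the X-inactivation transcript, read 6.68 and 6.74 there, at background, against 9.39 to 10.41 on the other 6. The Y-linked gene Eif2s3y read 8.34 and 8.51 on those 2 arrays and 6.66 to 6.73 on the other 6, so the day 20 samples did not share a single source. Results are therefore also given on those 6 arrays. Of 12 intestinal epithelial markers, 12 passed the expression filter used below, Krt8 at 13.85 ± 0.12 at day 20 and 13.75 ± 0.11 at day 7 (SD over 4 arrays a day) among them. Of these, the differentiation marker Krt20 fell by 2.26 on the log2 scale (limma adjusted p = 0.0383) and the intestinal transcription factor gene Cdx1 rose by 0.47 (0.0328).

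Few serpins were measurably expressed. Of the 56 genes, 20 (35.7%) exceeded the limit on 4 or more of the 8 arrays and were tested, against 65.4% of all 19057 genes. Only 6 exceeded it on all 8 arrays, and 17 exceeded it on none. The members just inside that filter, with 4 arrays each, were Serpinb12, with means of 6.827 at day 20 and 6.808 at day 7, and Serpinc1, with 6.827 at day 20 and 6.758 at day 7. Just outside it, with 3 arrays each, lay 8 members: Serpina1d, Serpina1e, Serpina6, Serpina7, Serpinb3a, Serpinb3d, Serpinb9b and Serpini1. By clade, 7 of 21 clade A genes, 8 of 26 clade B genes, 1 of 1 in clade C, 2 of 2 in clade F, 1 of 1 in clade G and 1 of 1 in clade H passed, while the single genes of clades D and E and the 2 of clade I did not. The mean over 8 arrays was above 8 for 3 genes, all in clade B, namely Serpinb6a, Serpinb11 and Serpinb1a, and 16 of the 20 tested genes had a mean under 7.1. Probes differ in how well they bind, so the level of one gene was not set against that of another. The 36 genes that were not tested read between 6.54 and 7.07 on every array, and their differences, day 20 minus day 7, ran from -0.15 to 0.08. RefSeq lists 69 Serpin symbols in the mouse, and 13 of them were not analysed here.

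**Figure D1:**
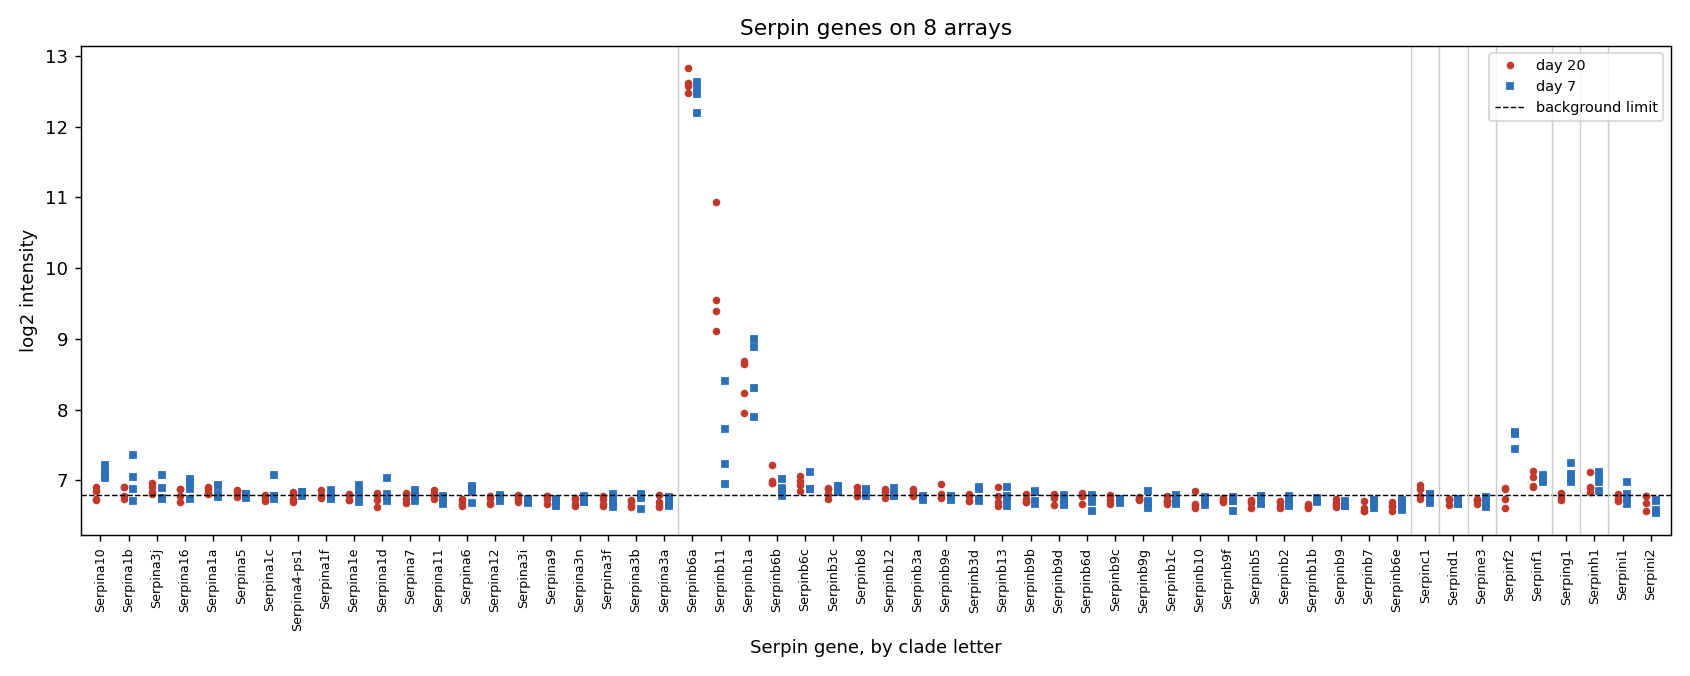
Log2 intensity of the 56 Serpin genes (vertical axis) on the 4 day 20 arrays (circles) and the 4 day 7 arrays (squares), 1 probe per gene, ordered by clade letter and by mean within a clade, with vertical lines between clades. Most genes sit at the dashed background limit of 6.796; Serpinb6a, Serpinb11 and Serpinb1a stand well above it on most or all arrays.

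Between the days, 4 of the 20 tested serpins changed: Serpinb11 rose, and Serpinf2, Serping1 and Serpina10 fell at day 20. Across all 12466 genes tested, 4.85% were called (limma, Benjamini-Hochberg adjusted p under 0.05), 2.51% as higher and 2.33% as lower. The day 20 and day 7 values did not overlap for the same 4 serpins, and did not overlap for 13.1% of all genes tested. The 3 genes that fell passed the expression filter with all 4 day 7 arrays and 2 day 20 arrays each, so they could have entered through day 7 alone, and the count over tested members supports nothing by itself. The median log2 difference was -0.015 over the tested serpins and 0.005 over all tested genes. Serpinf2 kept its call in 19 of 19 alternative settings, Serpinb11 in 11, and Serping1 and Serpina10 in 9 each. On the 6 arrays with Xist signal, 2 of them from day 20, only Serpinf2 passed.

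**Figure D2:**
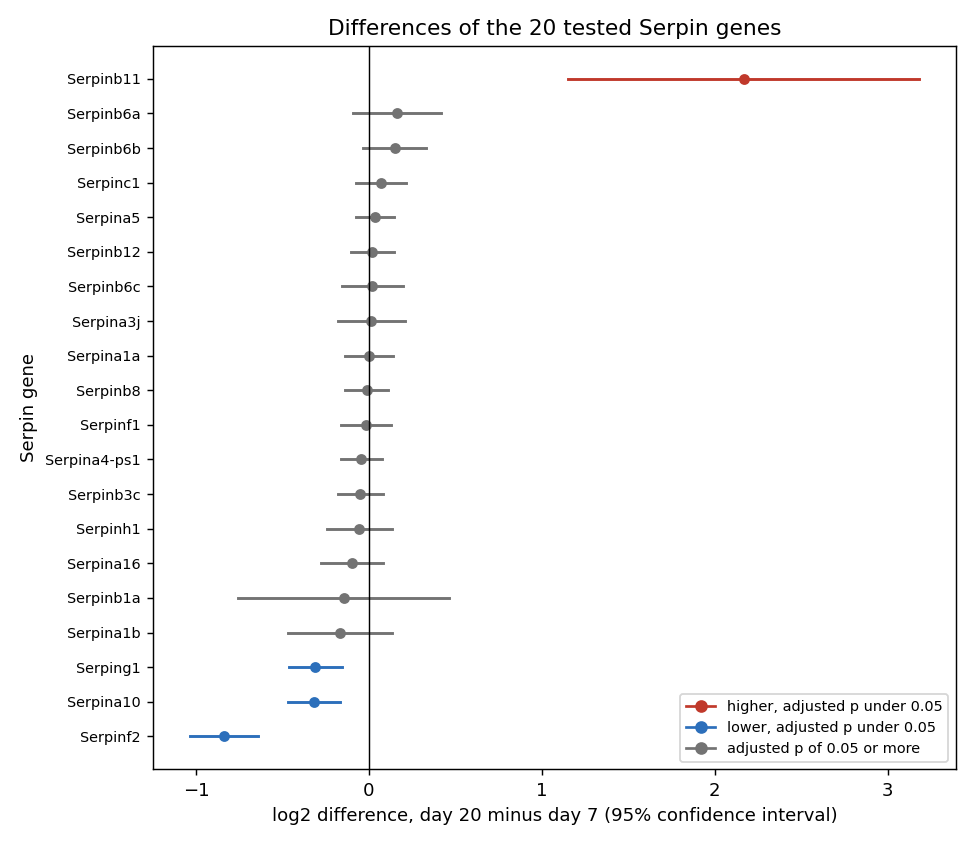
Log2 difference, day 20 minus day 7, with its 95% confidence interval from limma (horizontal axis) for the 20 tested Serpin genes, 4 arrays at each day. Serpinb11 lies to the right at 2.17, Serpinf2, Serpina10 and Serping1 lie to the left of 0, and the intervals of the other 16 include 0.

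Serpinb11 is an intracellular clade B serpin, and the mouse protein is known as an inhibitor of trypsin-like proteases, whereas the human protein has lost that activity. Its probe read 9.11, 10.94, 9.55 and 9.39 in day 20 replicates 1 to 4, against 8.41, 7.73, 7.23 and 6.95 in day 7 replicates 1 to 4. Every day 20 array was above every day 7 array, with day 20 replicate 2 the highest, and all 8 arrays were above background. The mean was 9.75 ± 0.82 at day 20 and 7.58 ± 0.64 at day 7 (SD over 4 arrays a day), a rise of 2.17 on the log2 scale or 4.49-fold (SE 0.44, 95% confidence interval 1.15 to 3.18, limma adjusted p = 0.0321). The call was lost without day 20 replicate 3 (0.0599) or 4 (0.0628) and without day 7 replicate 2 (0.0528), 3 (0.0805) or 4 (0.0735), where the rise was 1.96 to 2.29. The call was also lost with the replicate number as a block (0.0569) and with a 1.2-fold minimum (0.0865). On the 6 arrays with Xist signal the rise was 2.67 and the call was lost too (0.0509). With the background mode subtracted the rise was 3.06.

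The 250 bases before the RefSeq start of Serpinb11 (GRCm38.p6, chr1:107362064-107362313, plus strand) are shown because this is the serpin gene that rose, with matches to the searched motifs in capitals.
Serpinb11: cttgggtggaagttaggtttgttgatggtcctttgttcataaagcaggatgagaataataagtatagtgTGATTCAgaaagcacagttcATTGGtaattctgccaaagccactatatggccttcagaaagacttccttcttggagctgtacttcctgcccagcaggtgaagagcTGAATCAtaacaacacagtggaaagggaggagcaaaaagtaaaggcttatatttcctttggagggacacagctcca
The 9 motifs searched on both strands were the TATA box TATAAA, the CCAAT box, the GC box GGGCGG, the hypoxia response core ACGTG, the TCF/LEF core CTTTGA, the AP-1 letters TGANTCA, the GATA core AGATAA, the HNF1 core GTTAAT and the CDX core TTTATNG, none of which contains another. Serpinb11 held TGANTCA at -181 to -175 and again at -76 to -70, counted back from the base before the start at -1, and CCAAT on the opposite strand at -161 to -157. TGANTCA occurs in 6.7% of all 32851 RefSeq windows of that length and in 20.7% of the 58 windows of 49 Serpin genes in that table, and CCAAT in 33.8% and 32.8%. These matches are letters in a window and were not measured as binding.

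Serpinb11 lies in a row of clade B genes on chromosome 1, between Serpinb3c and Serpinb7 in the order of RefSeq (GRCm38.p6, used for order only). The 10 other clade B genes measured in that row stayed near background, with values of 6.56 to 6.92 on all arrays and differences of -0.07 to 0.08. Serpinb3c, a relative of the human squamous cell carcinoma antigens, differed by -0.05 (limma adjusted p = 0.697), and Serpinb8 and Serpinb12, the others that passed the filter there, by -0.01 (0.933) and 0.02 (0.887). Serpinb7, which lies on the other side, and Serpinb2, which encodes an inhibitor of urokinase, exceeded the limit on no array. The difference between Serpinb11 and its neighbours was not tested.

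**Figure D3:**
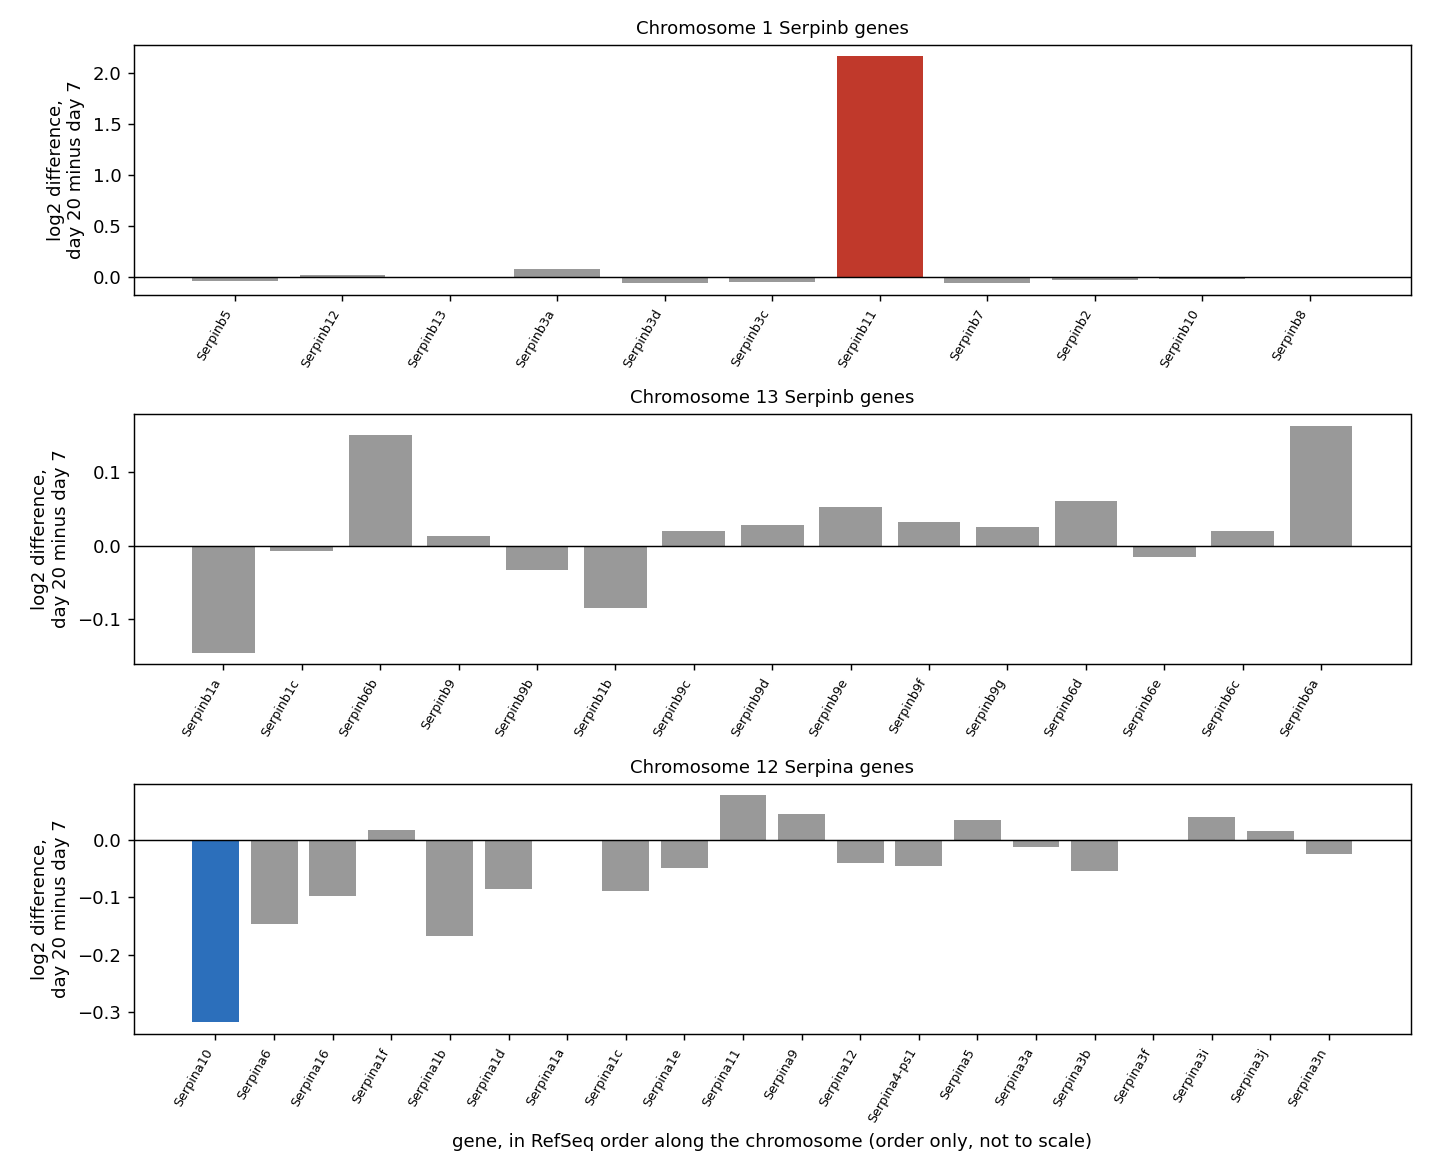
Log2 difference, day 20 minus day 7 (bars, from 0), of the measured Serpinb genes on chromosomes 1 and 13 and Serpina genes on chromosome 12. Genes follow their order along the chromosome, not to scale, and each panel has its own vertical axis. Serpinb11 is the tall bar on chromosome 1 and Serpina10 the lowest on chromosome 12, while no gene on chromosome 13 passed the test.

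Serpinf2 encodes alpha-2-antiplasmin, the main inhibitor of the clot-dissolving protease plasmin in blood, made chiefly by the liver. It read 6.60, 6.87, 6.89 and 6.74 in day 20 replicates 1 to 4, against 7.68, 7.67, 7.44 and 7.66 in day 7 replicates 1 to 4. The groups lay far apart relative to their spread, and only day 20 replicates 2 and 3 remained above background. The mean was 6.78 ± 0.13 at day 20 and 7.61 ± 0.12 at day 7 (SD over 4 arrays a day), a log2 difference of -0.84 (SE 0.09, 95% confidence interval -1.04 to -0.64, limma adjusted p = 0.00199). Because day 20 values sit at background, the size of the fall is compressed. With the background mode subtracted and an offset of 16 added, the difference was -2.24. Day 20 replicate 1 lay below the mode and was set to 0 before the offset was added. Near background such sizes depend on the offset, here and for the other genes given them.

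The second probe of Serpinf2 read 6.87, 6.99, 6.89 and 6.79 at day 20, against 7.36, 7.19, 7.29 and 7.27 at day 7. The third read 6.71, 6.70, 6.82 and 6.83 at day 20, against 7.11, 7.09, 7.19 and 7.18 at day 7. Day 20 arrays were below all day 7 arrays for each of the 3 probes. Tested as separate features, they fell by 0.84 (limma adjusted p = 0.00246), 0.39 (0.0136) and 0.38 (0.00963) on the log2 scale. The neighbouring gene Serpinf1, which encodes the non-inhibitory pigment epithelium-derived factor, was above background on all 8 arrays at 7.00 ± 0.11 at day 20 and 7.02 ± 0.04 at day 7 (limma adjusted p = 0.919).

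The window before the start of Serpinf2 (GRCm38.p6, chr11:75439502-75439751, minus strand) is shown as that of the serpin gene called in every alternative setting, capitals again marking matches.
Serpinf2: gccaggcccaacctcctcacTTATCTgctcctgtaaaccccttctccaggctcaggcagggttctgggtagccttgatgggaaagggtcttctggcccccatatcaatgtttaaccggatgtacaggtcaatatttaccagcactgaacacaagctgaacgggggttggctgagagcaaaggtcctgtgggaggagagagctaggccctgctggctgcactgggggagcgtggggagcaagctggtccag
Among the 9 motifs it held only AGATAA, on the opposite strand at -230 to -225, which occurs in 10% of all windows and in 19% of Serpin windows. It shared none of the motifs found before Serpinb11. Its GC content was 57.2%, against 42.8% for Serpinb11 and a median of 52.4% over all windows. Serping1 and Serpina10 have no entry in that table.

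Serping1 encodes the C1 inhibitor, which blocks the first proteases of the complement cascade and plasma kallikrein. It read 6.82, 6.72, 6.80 and 6.76 in day 20 replicates 1 to 4, against 7.24, 6.98, 7.09 and 7.03 in day 7 replicates 1 to 4. All day 20 values were at or near the background limit, with 2 arrays above it, and all 4 day 7 values were above it. The log2 difference was -0.31 (SE 0.07, 95% confidence interval -0.46 to -0.16, limma adjusted p = 0.0383), from means of 6.78 ± 0.04 at day 20 and 7.09 ± 0.11 at day 7 (SD over 4 arrays a day). Its other probe, above the limit on 2 arrays in all and so not tested, read 6.57 to 6.63 at day 20 and 6.73 to 7.05 at day 7, a difference of -0.30. Leaving out day 7 replicate 2 kept the call (adjusted p = 0.0338), and leaving out any other single array lost it (0.068 to 0.094). The 6 arrays with Xist signal, 2 of them from day 20, gave a difference of -0.325 (adjusted p = 0.133).

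**Figure D4:**
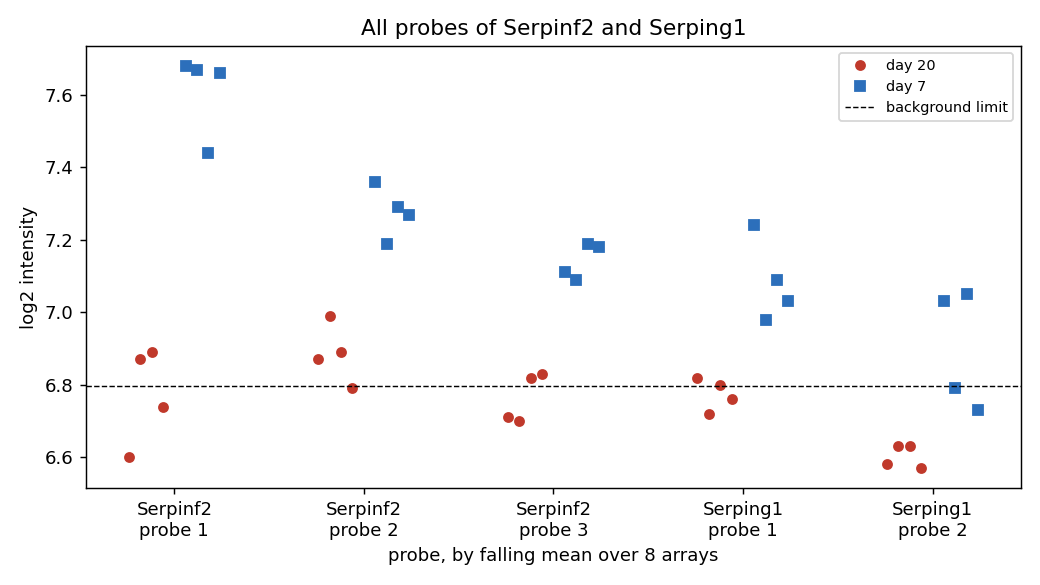
Log2 intensity (vertical axis) of the 3 probes of Serpinf2 and the 2 probes of Serping1 on the 4 day 20 arrays (circles) and the 4 day 7 arrays (squares), with the background limit dashed. For each of the 5 probes every day 20 array lies below every day 7 array. The day 20 values lie close to the limit on either side.

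Serpina10 encodes the protein Z-dependent protease inhibitor, which inactivates clotting factor Xa. It read 6.84, 6.73, 6.90 and 6.72 in day 20 replicates 1 to 4, against 7.08, 7.13, 7.22 and 7.03 in day 7 replicates 1 to 4. The days did not overlap, but the gap between them was small, and only 2 day 20 arrays were above background. The log2 difference was -0.32 (SE 0.07, 95% confidence interval -0.47 to -0.17, limma adjusted p = 0.0347), and -1.15 with the background mode subtracted. Leaving out day 20 replicate 3 kept the call (0.0385), and leaving out any other single array lost it (0.0505 to 0.0858). The 6 arrays with Xist signal, 2 of them from day 20, gave a difference of -0.30 (adjusted p = 0.141). On chromosome 12 it stands at one end of the clade A row, in which the 19 other measured genes differed by -0.17 to 0.08. Of those, 6 were tested and none passed.

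**Figure D5:**
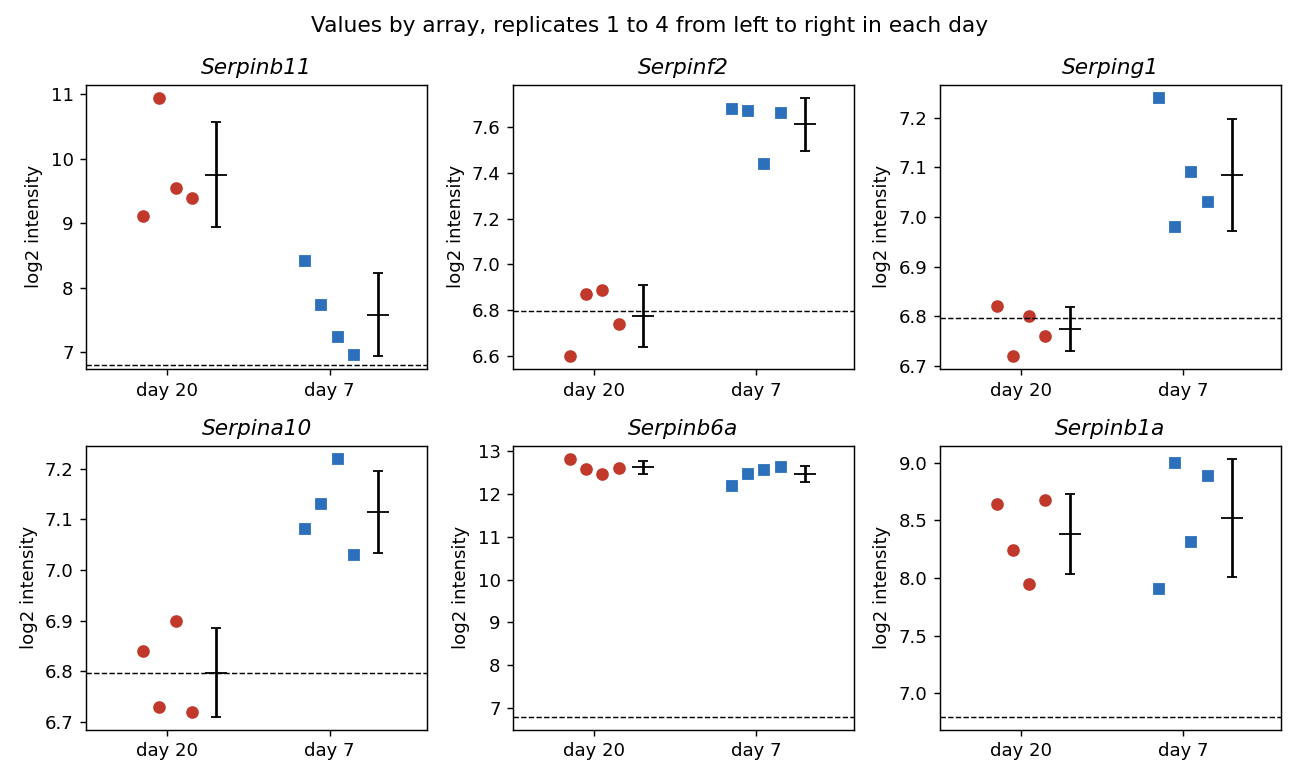
Log2 intensity (vertical axis, a separate scale in each panel) of the 4 Serpin genes that changed and of Serpinb6a and Serpinb1a, for day 20 (circles) and day 7 (squares), with the mean and SD of 4 arrays beside the points and the background limit dashed. Day 20 lies above day 7 for Serpinb11 and below it for Serpinf2, Serping1 and Serpina10, and the days overlap for Serpinb6a and Serpinb1a.

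Serpinb6a, an intracellular inhibitor whose human counterpart binds cathepsin G and whose loss causes deafness, was strongly detected throughout. It read 12.83, 12.58, 12.48 and 12.62 in day 20 replicates 1 to 4, against 12.20, 12.46, 12.56 and 12.64 in day 7 replicates 1 to 4. The days overlapped, and the log2 difference of 0.16 did not pass the test (95% confidence interval -0.09 to 0.42, limma adjusted p = 0.471). Its 3 other probes read between 6.66 and 6.95 on all arrays, so the level rests on 1 probe of 4. The gene has 2 starts in RefSeq, and the window of the first (GRCm38.p6, chr13:34002795-34003044, minus strand) is shown for contrast with the genes that changed.
Serpinb6a: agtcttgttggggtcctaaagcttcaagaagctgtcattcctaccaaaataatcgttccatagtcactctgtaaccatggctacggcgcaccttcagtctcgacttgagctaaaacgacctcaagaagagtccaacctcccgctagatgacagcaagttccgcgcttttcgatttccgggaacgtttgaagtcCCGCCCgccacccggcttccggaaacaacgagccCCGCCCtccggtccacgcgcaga
It held GGGCGG on the opposite strand at -57 to -52 and at -23 to -18, letters found in 32.7% of all windows and in 10.3% of Serpin windows. The window of the other start held only CCAAT.

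Serpinb1a, known for its inhibition of neutrophil elastase, cathepsin G and proteinase 3, was also detected on every array. It read 8.64, 8.24, 7.95 and 8.68 in day 20 replicates 1 to 4, against 7.90, 9.0, 8.31 and 8.88 in day 7 replicates 1 to 4. The days overlapped widely, with a log2 difference of -0.145 and a 95% confidence interval of -0.76 to 0.47 (limma adjusted p = 0.822). The rodent paralogues Serpinb6b and Serpinb6c were close to background. Serpinb6b read 7.03 ± 0.12 at day 20 and 6.88 ± 0.10 at day 7 (SD over 4 arrays a day; limma adjusted p = 0.338), and Serpinb6c differed by 0.02 (0.922). The 13 clade B genes measured on chromosome 13 other than Serpinb6a and Serpinb1a had values of 6.56 to 7.21, and 2 of them were tested. The Serpinb9 group, whose founding member inhibits granzyme B, did not pass the filter.

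Among secreted clade A genes the alpha-1-antitrypsin group stayed near background. Its 6 paralogues are close copies, so a probe of one may bind the transcript of another and the values are uncertain as to gene. Serpina1b read 6.91, 6.73, 6.77 and 6.91 in day 20 replicates 1 to 4, against 7.04, 7.36, 6.71 and 6.88 in day 7 replicates 1 to 4, with a log2 difference of -0.17 (limma adjusted p = 0.536). Day 7 replicate 2 held the highest value of 8 of the group's 10 probes. Among these 8, a Serpina1a probe read 6.93 against 6.92 on the next array, and a Serpina1e probe was below the limit at 6.77. On that array the absorptive cell markers averaged 10.59, where the remaining day 7 arrays had 8.59 to 9.05. Goblet markers (9.83, against 8.74 to 9.16) and tuft markers (7.30, against 6.99 to 7.04) were also highest there among day 7 arrays. So were intestinal epithelial markers (11.17, against 10.91 to 11.13) and endothelial markers (6.93, against 6.84 to 6.86). Leukocyte markers read 6.79 both there and on day 7 replicate 3. Enteroendocrine, Paneth, stem cell and mesenchymal markers were not highest there. Genes typical of liver were lowest there among day 7 arrays, at 7.552 against 7.553 to 7.63. The part of these cell types in the Serpina1 values was not tested. Serpina1a had equal means at both days (difference 0.00, 95% confidence interval -0.14 to 0.14).

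The remaining tested members did not pass. Serpinh1, the collagen chaperone Hsp47, was above background on all arrays at 6.94 ± 0.12 at day 20 and 6.99 ± 0.12 at day 7 (SD over 4 arrays a day; limma adjusted p = 0.776). The other probe of Serpinh1 read 6.67 to 6.89 and exceeded the limit on 3 arrays. Serpinc1, which encodes antithrombin, differed by 0.07 (0.6), and Serpina5, the protein C inhibitor, by 0.04 (0.75). Serpina16, Serpina3j and the pseudogene Serpina4-ps1 differed by -0.10 (0.542), 0.02 (0.95) and -0.05 (0.7). Their 95% confidence intervals, with those of Serpinb3c, Serpinb8, Serpinb12, Serpinb6c and Serpinf1, lay between -0.275 and 0.215. The hormone carrier genes Serpina6, for corticosteroids, and Serpina7, for thyroxine, exceeded the limit on 3 arrays each and were not tested. Serpind1, which encodes heparin cofactor II, exceeded it on none.

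The list of proteases that serpins can act on held 45 genes, with the urokinase receptor gene Plaur among them. Of these, 33 were tested, 3 rose and none fell, where 2.51% of all tested genes were called higher and 2.33% lower. Their median log2 difference was 0.03. Hgfac, which activates hepatocyte growth factor, rose by 2.58 on the log2 scale, at 11.43 ± 0.21 at day 20 and 8.85 ± 0.53 at day 7 (SD over 4 arrays a day; limma adjusted p = 0.00144). The serine protease gene Prss32 rose by 1.34 (0.000407), and the membrane-bound serine protease gene Tmprss2 by 0.58 (0.0145). Plasminogen (Plg), the precursor of the enzyme that alpha-2-antiplasmin blocks, read 6.77 ± 0.07 at day 20 and 6.82 ± 0.03 at day 7, near background (limma adjusted p = 0.701). Plau, Plat and Plaur, which encode both plasminogen activators and the urokinase receptor, differed by -0.24 (0.218), 0.17 (0.839) and -0.17 (0.734). C1ra exceeded the limit on no array, C1s1, as RefSeq names C1s, was not tested, and the cysteine proteases Ctsb and Ctsl differed by -0.27 (0.438) and 0.09 (0.651).

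Protease inhibitors of other families gave 1 rise and 1 fall among 22 tested of 31 with a probe, where 4.85% of all tested genes were called in either direction. Their median log2 difference was -0.03. Ambp, which encodes the Kunitz-type inhibitor bikunin together with alpha-1-microglobulin, fell by 1.69, at 6.95 ± 0.23 at day 20 and 8.64 ± 0.17 at day 7 (SD over 4 arrays a day; limma adjusted p = 0.000448), and the difference was -3.22 with the background mode subtracted. Slpi, the secretory leukocyte protease inhibitor, read 7.19 ± 0.18 at day 20 and 6.73 ± 0.06 at day 7 (limma adjusted p = 0.0274). No day 7 array exceeded the limit, so Slpi was at least 1.31-fold higher at day 20. It passed the expression filter through day 20 alone, so the count of rises and falls in this list supports nothing by itself. Spint1 and Spint2, the Kunitz inhibitors of matriptase on epithelial cells, differed by -0.32 (0.159) and 0.26 (0.142).

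Among genes for collagens and the enzymes and chaperones that fold them, with which Hsp47 works, 1 of 20 tested rose and none fell (median 0.12), against 4.85% of all tested genes called. That gene was the prolyl 4-hydroxylase subunit P4ha2, which rose by 1.89 (limma adjusted p = 0.014). The basement membrane collagen genes Col4a1 and Col4a2 differed by 0.995 (0.104) and 1.06 (0.0919).

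Marker levels of several other cell types also differed between the days. Many of these markers passed the expression filter through day 7 alone, so the counts describe the lists and support nothing else. Enteroendocrine markers averaged 6.86 to 7.02 per array at day 20 and 9.07 to 9.51 at day 7, and 8 of 8 tested of 10 measured fell. Cpe, Chgb, Gip and Insm1 had log2 differences of -1.68, -4.17, -2.70 and -1.52, and Chga, Cck and Sst exceeded the limit on no day 20 array. Goblet markers averaged 7.22 to 7.44 at day 20 and 8.74 to 9.83 at day 7, and 4 of 5 tested of 7 fell: Zg16 (1 day 20 array above the limit), Muc2, Clca1 and Tff3. Absorptive markers averaged 6.79 to 6.97 at day 20 and 8.59 to 10.59 at day 7, and 3 of 6 tested of 8 fell: Apoa1, Sis and Apoa4, the last on no day 20 array. Fewer cells of a type and less RNA per cell cannot be told apart in such bulk samples.

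Of 6 genes typical of liver, 2 were tested and 1 fell, the thyroxine carrier gene Ttr, at 6.87 ± 0.07 at day 20 and 7.96 ± 0.24 at day 7 (SD over 4 arrays a day; limma adjusted p = 0.00225), while Alb, Fga and Fgb were above the limit on no array. Of 4 Paneth markers tested, Mmp7 rose by 0.83 (0.0164). Lyz1, Itln1 and Ang4 did not pass, with differences of -1.06 (limma adjusted p = 0.292), -0.35 (0.736) and -0.45 (0.782). The median of the tested Paneth markers was -0.4. Of 5 stem cell markers tested, Lgr5 and Olfm4 fell, with differences of -0.82 (0.0216) and -1.80 (0.0283). Smoc2, Ascl2 and Axin2 did not pass, with differences of -0.72 (limma adjusted p = 0.133), 0.09 (0.751) and -0.065 (0.838). No marker passed among the 4 tested of 11 mesenchymal, 7 leukocyte, 5 endothelial and 5 tuft cell genes. Mesenchymal levels averaged 6.90 to 7.25 at day 20 and 7.29 to 7.52 at day 7. Vim read 9.76 ± 1.67 at day 20 and 11.80 ± 0.33 at day 7 (adjusted p = 0.162 by limma), Acta2 read 7.29 ± 0.41 at day 20 and 8.95 ± 0.83 at day 7 (0.0545), the median of the tested markers was -0.87, and Col1a1 and Thy1 were above the limit on no array. Leukocyte levels averaged 6.87 to 7.04 at day 20 and 6.76 to 6.79 at day 7, with Ptprc, Itgam and Lyz2 on no array. S100a8 read 7.28, 8.56, 7.41 and 7.53 in day 20 replicates 1 to 4 and did not exceed the limit at day 7 (limma adjusted p = 0.0656). Its highest value was on day 20 replicate 2, as for Serpinb11, and also for P4ha2 and Mmp7 of other lists. The leukocyte marker S100a9 was highest on day 20 replicate 3, at 7.02. Endothelial levels were 6.90 to 6.95 at day 20 and 6.84 to 6.93 at day 7. The part of these cell types in the serpin values was not tested.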

How the data were processed

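Expression was measured in 8 organoid samples, 4 at day 20 and 4 at day 7, on Illumina mouse beadchips with biotin-labelled cRNA, per the labels' protocols. The authors deposited log2 intensities (6.45 to 15.43) whose median and maximum are the same on every array. How they corrected and normalized them is not stated in the labels or headers. Intensities were not subtracted to 0, which compresses fold changes of dim genes. A second deposited table (16 columns) was left out because its headers could not be matched to samples.

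Of 45281 probes, 34885 had 1 gene symbol in the platform annotation, 18 had several and 10378 were unlisted and are unnamed here, and 0 symbols needed an update from RefSeq. The background limit lay above the mode of the values (6.7) by 0.05837, the SD estimated from the values under the mode, multiplied by the normal quantile that leaves 0.05 above it. Genes above it on at least 4 of 8 arrays entered 1 fit in limma 3.58.1 (R 4.3.3; lmFit, then eBayes; day 20 minus day 7, no covariates, two-sided), and p-values were adjusted over all 12466. Scripts were tested on simulated data. Every tested Serpin gene is named, and of each gene list described here the members that passed (at most the 4 smallest p) and the direct partners of a serpin. One further list is not reported here. The members, lists and tests were chosen with earlier results of these data known. Arrays carry no read depth, and the number of arrays sets the precision. Promoters were matched by symbol to RefSeq (GRCm38.p6), with an entry for 49 of 56 genes. No genome build is given for the array values. Python 3.11.15 and matplotlib 3.10.9 made the figures.

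Alternatives were cyclic loess, the replicate number as a block, every gene without a filter, a strict limit of 6.836 (probability 0.01), averaged probes, all probes as separate features, intensity trend with robust variance, array weights, removal of the background mode (offset 16), the 6 arrays with Xist signal, a 1.2-fold minimum, and each array left out.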

Additional observations from a re-analysis of the deposited data

Results flagged for a closer look

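Within a day, 4 of 40 groups of 4 arrays (20 tested Serpin genes at 2 days) held an array far from the other 3 by Dixon's 95% criterion, where chance flags about 1 in 20. Serpinb6b read 7.21 on day 20 replicate 4 and 6.96 to 6.99 on the other day 20 arrays. Serpinb12 read 6.89 on day 7 replicate 1 and 6.77 to 6.79 on the others of that day. Serpinb6c read 7.12 on day 7 replicate 2, against 6.87 to 6.88. Serpinf2 read 7.44 on day 7 replicate 3, against 7.66 to 7.68, and the gene still differed between the days without that array (-0.90, limma adjusted p = 0.00397).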

How the results depend on the processing

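The count of 4 changed Serpin genes was the same in 8 of the 11 alternatives other than leaving out 1 array. It was 1, Serpinf2, with the replicate block, with a 1.2-fold minimum and on the 6 Xist-positive arrays. Leaving out each array in turn gave counts from 1 to 2, and it was 1 without day 20 replicate 4 or day 7 replicates 3 or 4. With the replicate block the adjusted p was 0.0209 for Serpinf2, 0.0569 for Serpinb11, 0.0591 for Serpina10 and 0.066 for Serping1. The labels do not say whether the numbers pair the arrays. Deviations of same-numbered arrays from their day means correlated at 0.119, 0.05, -0.01 and 0.142 for numbers 1 to 4. Of the 8 arrays, 4 correlated best with their own number. Correlations this weak cannot decide whether arrays were paired. In sex-linked genes, numbers 1 and 4 did not match between the days: Xist read 6.68 and 6.74 at day 20, against 10.01 and 9.87 at day 7. Eif2s3y read 8.34 and 8.51 at day 20, against 6.68 and 6.73 at day 7. Those numbers therefore do not pair arrays of 1 animal, whereas numbers 2 and 3 stay undecided. With probes averaged the difference of Serpinf2 was -0.54, and with the background mode subtracted Serping1 was at -1.14. All genes called numbered 604 in 12466, 401 with the replicate block, 413 on the 6 arrays and 162 with the 1.2-fold minimum.

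Among genes that passed nowhere, some signs changed. Leaving out each array in turn gave differences of -0.028 to 0.085 for Serpina3j, -0.353 to 0.014 for Serpinb1a, -0.014 to 0.081 for Serpinb6c, -0.042 to 0.005 for Serpinb8, -0.061 to 0.012 for Serpinf1 and -0.092 to 0.338 for Plat. On the 6 arrays Serpinb12 and Serpinb6c were at -0.017 and Serpinh1 at 0.01, and with array weights Serpina3j was at -0.019. Of the other genes named, Ambp, Hgfac, Prss32 and P4ha2 passed in 19 of 19 alternatives, Tmprss2 in 17 and Slpi in 12; Col4a2 passed without day 7 replicate 4 (0.0327). The causes were not tested. Signal at background limits the sizes given for Serpinf2, Serping1 and Serpina10.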
